A study of Rattus norvegicus with 4 samples.

Results

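Smooth muscle contractile and cytoskeletal genes encode the actin and myosin filaments of the vessel wall, the proteins that anchor and regulate them, and the factors that switch their genes on. They were described here as 43 genes chosen by name, of which 41 had a probe that could be matched by its RefSeq accession, among 16580 named genes on the array. Mrtfa and Mrtfb had no matched probe and were not analysed here. Where a gene had several probes, the brightest was taken, and 36 of the 41 genes were well above background on all 4 arrays.

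The study compared vessels of male Wistar rats (WT) with vessels of male rats lacking protein kinase C beta (KO), made on the Wistar background. Within a genotype, 1 sample was left untreated (WT control, KO control) and 1 was exposed for 24 h to angiotensin II (WT Ang II, KO Ang II), a hormone that constricts arteries. Each of the 4 groups held 1 array, so a difference between single arrays has no replicate check and no p-value. The design text speaks of 4 rats for each genotype. The sources used here do not state pooling of RNA, the kind of vessel, the age of the rats or the dose of Ang II, and they name no promoter or cell type for the deletion.

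Contraction of vascular smooth muscle depends on phosphorylation of the myosin light chain, which calcium and calmodulin drive through myosin light chain kinase and which myosin phosphatase reverses. Actin filaments are fixed to dense bodies and, through focal adhesions and the dystrophin complex, to the membrane and matrix. Serum response factor (Srf), together with its partners myocardin and the myocardin-related factors, binds the CArG box, an element of CC, then 6 bases of A or T, then GG, in many of these genes, and Ang II is known both as a constrictor and as a growth stimulus of these cells.

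RefSeq start sites of the GRCr8 rat assembly were available for 36 of the 43 genes, with 41 windows of 250 bases before a start. Myh11, Myl9, Lmod1, Tagln, Myocd, Pdlim3 and Tns1 had no entry. An exact CArG box was found in 7 of the 41 windows (17.1%), of 6 genes, and in 501 of all 33469 windows. When 1 base of the core was allowed to be other than A or T, 8 member windows (19.5%) and 2703 of all windows (8.08%) held a box; this wider search was chosen after the values were seen. The letters CATTCC, on either strand, a site of TEA domain factors, were in 9 member windows (22.0%) and in 4037 of all windows. These matches describe the letters only, and no binding was measured.

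Promoters are shown for the measured members with an exact box, for Acta2, whose pair of boxes each differ from the exact form by 1 core base and which was added after its values were seen, and for Des, whose levels set it apart from the others below. Capitals mark the boxes, and each line runs 5' to 3' toward the start site. The windows are chr9:21923826-21924075 (+ strand) for Srf, chrX:51205836-51206085 (+ strand) for Dmd, chrX:139638246-139638495 (+ strand) for Fhl1, chr17:57462661-57462910 (- strand) for Svil, chr1:241172504-241172753 (- strand) for Acta2 and chr9:84299376-84299625 (+ strand) for Des, all in GRCr8.
Srf: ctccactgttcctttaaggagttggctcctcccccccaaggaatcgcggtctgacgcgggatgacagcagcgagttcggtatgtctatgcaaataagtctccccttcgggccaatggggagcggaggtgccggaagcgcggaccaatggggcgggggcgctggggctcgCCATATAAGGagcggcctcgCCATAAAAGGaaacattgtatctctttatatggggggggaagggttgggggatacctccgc
Dmd: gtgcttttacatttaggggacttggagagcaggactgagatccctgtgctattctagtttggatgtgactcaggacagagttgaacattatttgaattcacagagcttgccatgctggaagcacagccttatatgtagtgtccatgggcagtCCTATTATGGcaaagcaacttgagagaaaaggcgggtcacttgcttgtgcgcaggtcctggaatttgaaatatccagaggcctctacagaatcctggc
Fhl1: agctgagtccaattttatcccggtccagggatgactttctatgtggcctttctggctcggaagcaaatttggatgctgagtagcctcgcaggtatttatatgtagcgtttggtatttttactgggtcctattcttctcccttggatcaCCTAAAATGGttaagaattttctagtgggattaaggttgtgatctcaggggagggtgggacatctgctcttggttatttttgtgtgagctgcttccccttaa
Svil: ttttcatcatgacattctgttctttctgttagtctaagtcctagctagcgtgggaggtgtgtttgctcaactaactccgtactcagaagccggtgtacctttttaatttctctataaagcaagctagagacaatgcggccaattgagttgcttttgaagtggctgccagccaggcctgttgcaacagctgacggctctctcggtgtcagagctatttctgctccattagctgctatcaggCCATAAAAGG
Acta2: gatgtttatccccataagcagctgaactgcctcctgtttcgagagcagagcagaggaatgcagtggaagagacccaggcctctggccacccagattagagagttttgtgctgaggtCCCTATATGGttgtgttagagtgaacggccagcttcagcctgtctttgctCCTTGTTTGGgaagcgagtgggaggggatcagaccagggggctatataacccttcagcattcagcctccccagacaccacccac
Des: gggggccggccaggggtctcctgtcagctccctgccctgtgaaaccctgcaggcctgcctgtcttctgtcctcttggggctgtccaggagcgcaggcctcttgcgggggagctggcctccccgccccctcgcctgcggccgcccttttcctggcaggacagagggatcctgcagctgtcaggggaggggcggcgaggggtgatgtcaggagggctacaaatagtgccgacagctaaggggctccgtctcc
The Srf window held 2 exact boxes, starting 81 and 61 bases before the start site, and the wider boxes of Acta2 began 134 and 84 bases before it. The box of Dmd began 98 bases before the start, that of Fhl1 102 bases and that of Svil 10 bases. The Des window held no box in either form. Fhl2 and Ldb3, which were too dim on most arrays to compare fully, also held exact boxes.

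Levels are given as scaled log2 signal, the log2 of the processed signal minus the 75th percentile of that array, so that 0 is the brightness of that percentile. A level can be compared between arrays for the same probe and not between genes. The labels name the tissue only as vessel, and the defining smooth muscle genes Myh11, Acta2, Tagln and Cnn1 were well above background on all 4 arrays. Prkcb, the gene of the deleted kinase, had a processed signal of 14.8 and 18.0 in WT and of 1.94 and 1.89 in KO, without and with Ang II, on its probe with 10 spots. The sources used here do not say whether that probe lies in the deleted stretch. Between 40.7% and 43.6% of probes were well above background per array, and no spot was saturated. Of the 36 fully measured members, 29 rested on a single spot, and the scanner's own error of their log2 level was 0.144 to 0.293, with a median of 0.144. This error is technical and covers no difference between animals.

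Most members were brighter on the KO arrays after scaling. The 75th percentile that scaling removed was 58.7 and 62.4 in WT and 47.3 and 52.1 in KO, without and with Ang II. Scaling thus raised KO relative to WT for every gene. Of the 36, 28 had both KO values above both WT values, against 32.6% of 8600 named genes, and 2 had both below, against 31.2%. The highest level lay on KO Ang II for 19 members and on KO control for 14. It lay on WT Ang II for 2, against 32.2% of all genes, and on WT control for 1, against 20.1%. The shares of all genes that peaked on KO Ang II and on KO control were 20.2% and 27.5%. The lowest level lay on WT Ang II for 19 members (25.7% of all genes), on WT control for 15 (28.4%), on KO control for 2 (25.3%) and on KO Ang II for 0 (20.6%). The gap between the genotypes was under 0.106, which is the spread of a log2 ratio between replicate spots, for 5 of the 30 members whose genotypes did not overlap. The scanner's error of a single level, 0.144 or more, is larger than that spread. The gaps of Svil (0.11) and Dmd (0.13) were also under that error. A gap is a difference of 2 levels, so its own error is larger still. The gaps of Srf (0.15), Mylk (0.16), Fhl1 (0.16) and Pdlim3 (0.17) were little above the error of a single level. That of Myocd was 0.21, beside errors of 0.173 on WT Ang II and 0.186 on KO control.

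**Figure D1:**
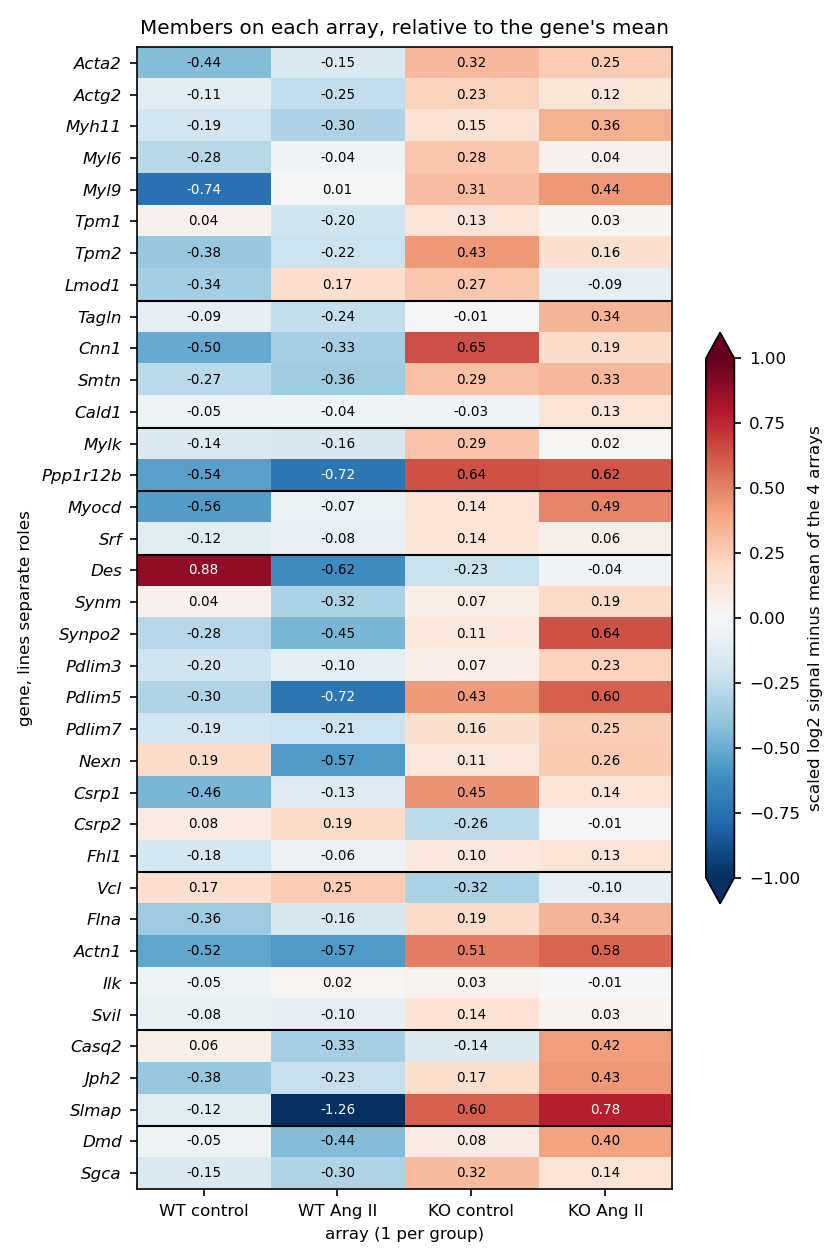
Each row is a member well above background on all 4 arrays and each column 1 array. Colour and printed number give the scaled log2 signal minus the gene's mean of the 4 arrays, and black lines separate the roles. The KO columns are mostly above 0 and the WT columns mostly below, with Vcl and Csrp2 running the other way and Des, Lmod1, Casq2, Nexn, Tpm1 and Ilk overlapping between the genotypes.

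Without Ang II, KO minus WT had a median log2 ratio of 0.37 over 38 members that could be compared, against 0.01 over 9582 named genes. Of these members 32 lay above 0, against 50.5% of all genes. A size of at least 2-fold higher was reached by 4 members (2.92% of all genes) and at least 2-fold lower by 1 member (4.06%). With Ang II the median was 0.43 over 39 members, against -0.04 over all genes, and 33 lay above 0, against 46.2%. There 5 members were at least 2-fold higher (1.95% of all genes) and 0 at least 2-fold lower (5.21%). The comparisons without and with Ang II share no array, but the sources used here do not say whether the arrays of a genotype share rats. Over 6 other ways of processing the medians ranged from 0.19 to 0.45 and from 0.27 to 0.50, whereas the members at least 2-fold higher numbered 0 in both comparisons with normexp background correction of the raw signal (offset 50). Over all named genes the same counts went from 280 to 25 and from 188 to 18.

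**Figure D2:**
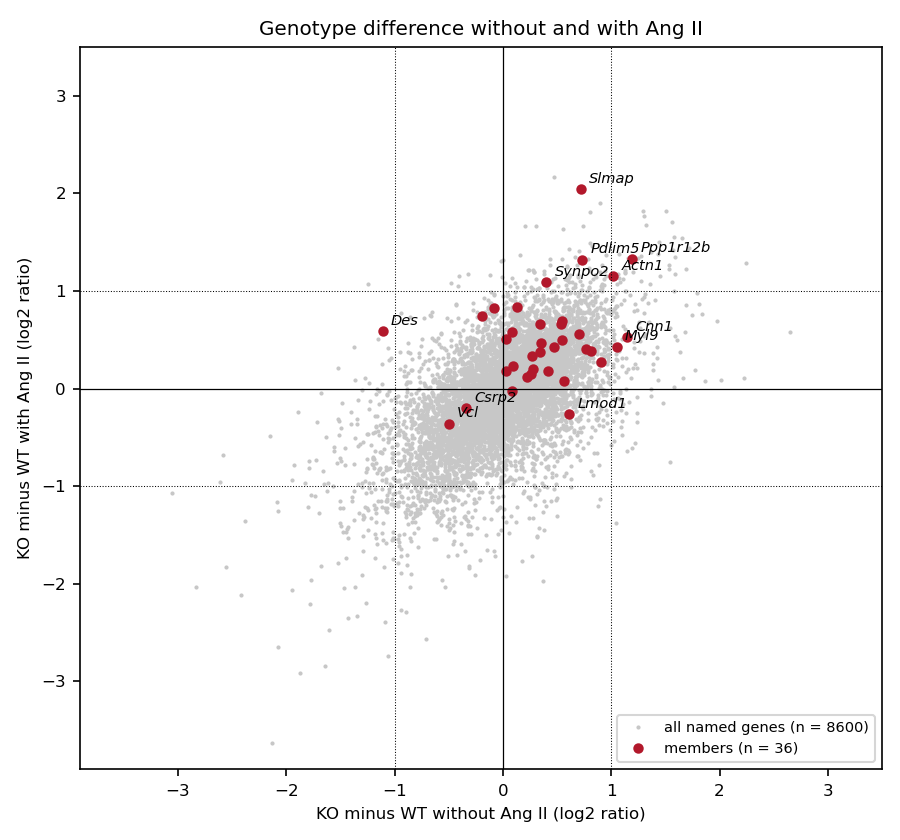
Each point is a gene, with its KO minus WT log2 ratio without Ang II on the x axis and with Ang II on the y axis. Members (red, n = 36) lie mostly to the upper right in the cloud of all named genes (grey, n = 8600), and dotted lines mark 2-fold. Slmap reaches 2.04 on the y axis, and Des lies at -1.11 and 0.59.

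The only test that 4 arrays allow is an additive fit of genotype and treatment, whose 1 residual degree of freedom holds any real difference of the Ang II responses. In limma with Benjamini-Hochberg adjustment over 9387 genes, 0 of 38 members and 0% of all genes passed an adjusted p of 0.05 for genotype. At an unadjusted p under 0.05, 16 members were higher in KO and 1 was lower, against 10.9% and 15.3% of all genes. When the prior variance followed signal intensity, 11 members passed as higher and 0 as lower, against 6.01% and 7.92% of all genes, and at an unadjusted p under 0.05 there were 21 and 1, against 14.6% and 17.2%. These were Actn1, Ppp1r12b, Smtn, Pdlim5, Myl9, Myh11, Slmap, Tpm2, Acta2, Flna and Csrp1, with limma adjusted p from 0.00331 to 0.0431, and the genotype calls thus depend on that choice.

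The filament proteins had a median KO minus WT log2 ratio of 0.59 without Ang II, with 8 of 8 above 0 (50.5% of all genes), and of 0.37 with it, with 7 of 8 above 0 (46.2%). Both KO values lay above both WT values for 6 of the 8. With normexp the ratios of Tpm1 without Ang II (-0.09) and Myl6 with it (-0.03) were below 0. The same shares of all genes stand behind the counts of the other roles. Acta2, the smooth muscle alpha-actin that forms most of the contractile thin filament, read 2.76 in untreated and 3.05 in Ang II-treated WT vessels, against 3.52 and 3.45 in KO. Both KO arrays lay above both WT arrays, by ratios of 0.77 without and 0.40 with Ang II. Its limma genotype effect was 0.58 with a standard error of 0.18 (adjusted p = 0.153, or 0.0326 with the intensity trend).

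Myh11, the smooth muscle myosin heavy chain, stood at 6.20 and 6.09 in WT (control, then Ang II) and at 6.54 and 6.75 in KO, again without overlap between genotypes. Myl9, the regulatory light chain that is phosphorylated in contraction, stood at 2.58, 3.33, 3.63 and 3.76 in the same order, WT control, WT Ang II and then the KO pair, which all 4-value series below keep. Myl9 was thus lowest in WT control, and its ratio of 1.05 without Ang II narrowed to 0.43 with it. The essential light chain Myl6 read 2.32, 2.56, 2.88 and 2.64, with KO Ang II only 0.08 above WT Ang II.

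Of the other actins and tropomyosins, Actg2, the gamma-actin of visceral smooth muscle, read 4.48, 4.34, 4.82 and 4.71, and its other probe gave KO minus WT ratios of 0.36 and 0.48, beside 0.34 and 0.37. Actin genes are near copies of each other, so probes may share signal. Tpm2 read 3.0, 3.16, 3.81 and 3.54, and its 3 probes gave ratios of 0.65 to 0.98 without Ang II and 0.20 to 0.38 with it. Lmod1, leiomodin, which nucleates actin filaments, was the filament gene whose direction differed, at 0.61 without Ang II and -0.26 with it.

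Tpm1 depended on the probe. The brightest, with 10 spots, read 4.28, 4.04, 4.37 and 4.27, with spot SDs of 0.0600 to 0.0958, and its KO minus WT ratios were 0.09 and 0.23. The other 3 probes, which the array design lists under another Tpm1 transcript, gave 0.56 to 0.76 without Ang II and 0.87 to 1.58 with it. They also gave lower values for Ang II in WT, from -1.02 to -0.43, against -0.24 on the brightest. The Tpm1 gene makes many tropomyosin isoforms by alternative splicing, and which isoforms each probe detects was not tested.

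Proteins that bind the thin filament were higher in KO in 4 of 4 cases in both comparisons. Without Ang II, however, Cald1 (0.03) and Tagln (0.08) were under the spot spread of 0.106. With normexp both were below 0, at -0.15 and -0.14, and Cald1 was also below 0 under another scaling (-0.09). Cnn1, calponin, which inhibits actomyosin, was among the dim members, at -2.24 and -2.07 in WT and at -1.09 and -1.55 in KO. It was 2.22-fold higher in KO without Ang II and 1.44-fold with it. Smtn, smoothelin, a marker of fully contractile cells, read 5.16, 5.07, 5.72 and 5.76. Its ratios of 0.55 and 0.69 were alike in both treatments, and its limma genotype effect was 0.62 with a standard error of 0.15 (adjusted p = 0.127, or 0.0103 with the intensity trend).

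Tagln, the actin-bundling protein also called SM22, separated less. Its levels were 3.23, 3.08, 3.31 and 3.66, so that KO control lay only 0.08 above WT control while KO Ang II lay 0.58 above WT Ang II. With normexp the first of these ratios was -0.14. Cald1, caldesmon, was nearly level on its brightest probe, at 6.98, 6.99, 7.0 and 7.16, with spot SDs of 0.0338 to 0.0680 over 10 spots. Its other probe gave KO minus WT ratios of 0.62 and 0.97.

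The genes of the myosin light chain kinase and of 1 subunit of the phosphatase were both brighter in KO, and the subunit gene more so. Ppp1r12b, a targeting subunit of myosin phosphatase, stood at 0.42 and 0.24 in WT and at 1.60 and 1.58 in KO. It was 2.28-fold higher in KO without Ang II and 2.52-fold with it, and the lower KO array lay 1.16 above the higher WT array. A second Ppp1r12b probe gave 0.87 and 0.90. The limma genotype effect of Ppp1r12b was 1.26 with a standard error of 0.15, with an adjusted p of 0.098, the lowest of all members, and of 0.00433 with the intensity trend. Mylk, the light chain kinase, read 4.01, 3.99, 4.44 and 4.17, giving ratios of 0.42 and 0.18, the second of which was -0.03 with normexp.

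**Figure D3:**
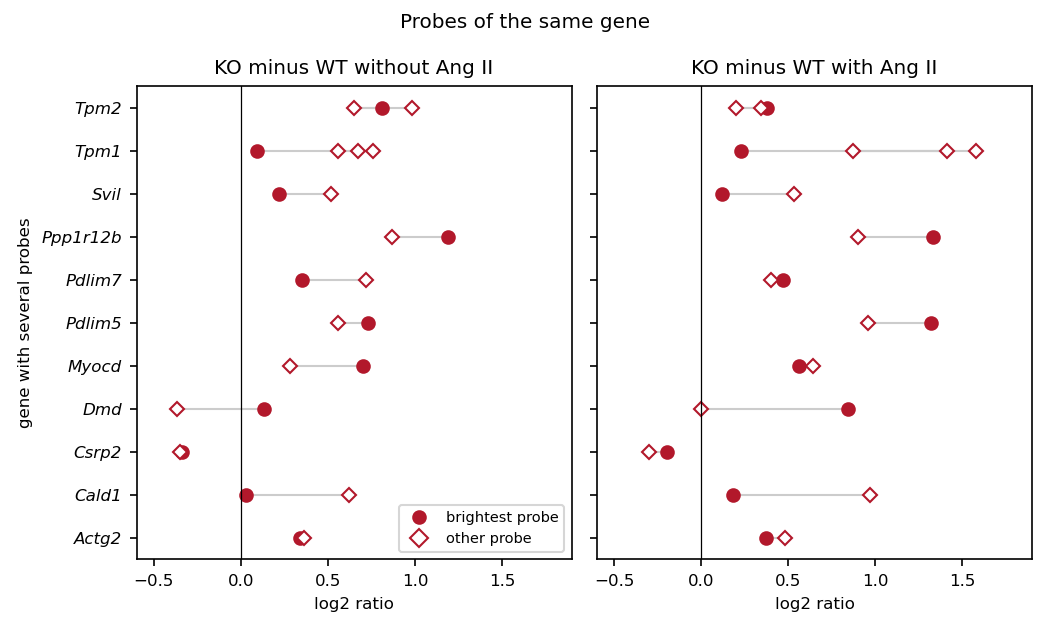
Log2 ratios of KO minus WT, without Ang II on the left and with it on the right, for the 11 members with more than 1 probe well above background on all 4 arrays. Filled circles are the brightest probes used elsewhere and open diamonds the other 14 probes, of which 13 share the sign of the brightest in each panel. Dmd is the exception, and the other probes of Tpm1 and Cald1 lie far to the right of the brightest.

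Both measured regulators of transcription were higher in KO. Myocd, myocardin, the coactivator of Srf found in cardiac and smooth muscle, read -1.63, -1.14, -0.93 and -0.58 with both KO values above both WT values, and its ratios were 0.70 without and 0.56 with Ang II. Its other probe gave 0.28 and 0.64. For Ang II in WT the Myocd probes opposed each other, at 0.49 and -0.27. Srf itself differed little, at 3.30, 3.34, 3.56 and 3.48, and its ratio of 0.15 with Ang II was -0.03 with normexp.

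Dense body and intermediate filament genes held the largest spread. Their median KO minus WT ratio was 0.27 without Ang II over 11 genes, with 7 above 0, and 0.47 with Ang II over 11 genes, with 9 above 0. Pdlim5, a PDZ and LIM domain protein that links alpha-actinin to signalling kinases, read -0.14, -0.56, 0.59 and 0.76. It was 1.66-fold higher in KO without Ang II and 2.50-fold with it, and its other probe gave 0.56 and 0.96. Synpo2, an actin-bundling protein of dense bodies, read -0.19, -0.36, 0.20 and 0.73, with the highest value in KO Ang II and a ratio of 1.09 there.

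Smaller differences without overlap were seen for the LIM domain genes Pdlim3 (0.27 without and 0.33 with Ang II), Pdlim7 (0.35 and 0.47) and Fhl1 (0.28 and 0.20). With normexp the Fhl1 ratios were 0.01 without and -0.01 with Ang II. Csrp1, a LIM protein bound to alpha-actinin, read 3.38, 3.71, 4.29 and 3.98, with ratios of 0.91 and 0.27. Its relative Csrp2 ran the other way. The 10 spots of its brightest probe gave 2.80 ± 0.0622 and 2.91 ± 0.0525 in WT and 2.46 ± 0.0530 and 2.71 ± 0.0324 in KO (SD within the array), and a second probe with 10 spots gave KO minus WT ratios of -0.35 and -0.30 beside -0.34 and -0.20. The Csrp2 ratios exceeded the spot spread of 0.106, which is no spread between animals. The gap between the genotypes, 0.08, was under it.

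Des, desmin, the muscle intermediate filament that ties dense bodies together, had the largest difference between the genotypes' Ang II responses of all 36 members. It read 3.73 in WT control, 2.22 in WT Ang II and 2.62 and 2.81 in KO, and WT control was the array that stood apart. KO was lower without Ang II by -1.11 and higher with it by 0.59, and each value rests on the single spot of 1 probe. Nexn and Casq2 also had KO lower without and higher with Ang II, with smaller ratios. Synm, synemin, which forms filaments with desmin, read 4.0, 3.64, 4.03 and 4.15, and Nexn, the actin-binding protein nexilin, 3.71, 2.95, 3.63 and 3.78. Both were lowest on WT Ang II and near level on the other arrays.

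Ldb3 and Fhl2 were measured in part. Ldb3, a Z-disc PDZ and LIM protein, was well above background on both control arrays, at -1.62 in WT and -2.29 in KO, and on no Ang II array. It was therefore at least 2.85-fold lower with Ang II in WT. In KO it was 1.50-fold lower with the Ang II array at its own dim level of -2.88, which is no strict bound. Fhl2 was well above background only in WT Ang II, at -2.74, which makes it at least 1.66-fold higher there than in WT control and KO Ang II at least 1.31-fold lower.

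Adhesion and cortical genes had no common direction, with medians of 0.22 over 5 and 0.05 over 6 genes for KO minus WT without and with Ang II. Actn1, the alpha-actinin of focal adhesions and dense bodies, stood out with 2.32, 2.27, 3.35 and 3.42. Both KO arrays were at least 1.02 above both WT arrays, and KO was 2.03-fold higher without Ang II and 2.22-fold with it. Its limma genotype effect was 1.09 with a standard error of 0.15 (adjusted p = 0.0989, or 0.00331 with the intensity trend), and with normexp the ratios were 0.90 and 0.88. Flna, filamin A, which cross-links cortical actin, read 2.40, 2.60, 2.95 and 3.10, with ratios of 0.55 and 0.50.

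Vcl, vinculin, which connects integrin complexes to actin, was lower in KO, at 2.90, 2.98, 2.41 and 2.63, with ratios of -0.50 and -0.36. Ilk, integrin-linked kinase, spanned only 3.79 to 3.87 over the 4 arrays, and Svil, supervillin, 1.79 to 2.03 on its brightest probe. The other Svil probe gave KO minus WT ratios of 0.52 and 0.53, beside 0.22 and 0.12. Flnc, filamin C, was well above background only in WT Ang II, at -2.62. KO Ang II read 1.26-fold lower at its own dim level of -2.95, which is no strict bound. With normexp no such ratio was given. Tns1, tensin, was well above background on no array, so that no ratio could be given.

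At the junction of sarcoplasmic reticulum and membrane, 2 of 3 genes had both KO values above both WT values (32.6% of all genes). Jph2, junctophilin, which bridges those membranes, read -1.38, -1.23, -0.83 and -0.57. Slmap, a tail-anchored protein of the reticulum and membrane, read -1.20 and -2.34 in WT and -0.48 and -0.30 in KO. It was 1.64-fold higher in KO without Ang II and 4.10-fold with it, the largest member ratio in the comparison with Ang II, and WT Ang II was the array that stood apart. With normexp the Slmap ratios were 0.27 and 0.62. Casq2, calsequestrin, which buffers stored calcium, read -1.28, -1.67, -1.48 and -0.92, with KO minus WT at -0.19 without Ang II (0.02 with normexp) and 0.74 with it.

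Members of the dystrophin complex were higher in KO in 3 of 3 cases in both comparisons. Dmd, dystrophin, read 2.43, 2.04, 2.56 and 2.88, with ratios of 0.13 and 0.84, but another Dmd probe gave -0.37 and 0.00, and the first ratio was -0.01 with normexp. Sgca, alpha-sarcoglycan, read 0.32, 0.17, 0.79 and 0.61, with ratios of 0.47 and 0.43. Sgcd, delta-sarcoglycan, was well above background on the KO arrays only, at -2.05 and -1.93. It was 1.69-fold higher without and 1.61-fold higher with Ang II against the WT arrays' own dim levels, which is no strict bound. With normexp both log2 ratios were 0.19. Other genes of this complex ran the other way on the same arrays, with Sgce at -0.74 and -0.98 and the associated membrane protein Sspn at -0.78 and -1.43.

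Ang II itself was followed by no common direction. In WT the median of Ang II minus control was -0.01 over 39 members, against 0.04 over all genes, and 19 lay above 0, against 55.1%. At least 2-fold higher were 0 members (2.02% of all genes) and at least 2-fold lower 3 (0.999%), namely Des, Slmap and Ldb3, the last as a bound. In KO the median was 0.10 over 38 members, against 0.00, with 23 above 0, against 48.9%, and no member reached 2-fold (0.443% of all genes higher and 1.40% lower). With limma, 0 of 38 members passed an adjusted p of 0.05 for Ang II, and 0 were higher and 1 lower at an unadjusted p under 0.05 (2.03% and 1.80% of all genes). With the intensity trend 0 passed, and 1 was higher and 1 lower at an unadjusted p under 0.05 (2.15% and 1.35%). Both Ang II arrays lay above both control arrays for 0 members (8.84% of all genes) and below them for 1 (6.79%), which was Tpm1.

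The difference between the genotypes' Ang II responses is described by role. For the filament proteins the KO response minus the WT response had a median of -0.40, with 3 of 8 above 0, against 44.0% of all genes, so that the count is near the background. The lowest values were Lmod1 at -0.88 and Myl9 at -0.62, and outside that role Csrp1 stood at -0.64 and Cnn1 at -0.62. Each of these was higher with Ang II in WT (Lmod1 0.51, Myl9 0.75, Csrp1 0.33, Cnn1 0.17), and all but Myl9 were lower with it in KO. The Ang II ratio of Cnn1 in WT was -0.06 with normexp.

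For the intermediate filament and dense body genes the median of that difference was 0.32, with 8 of 10 above 0 (44.0% of all genes), and for the 3 reticulum genes it was 0.94. Des (1.70), Slmap (1.32), Casq2 (0.94), Nexn (0.91), Dmd (0.71) and Synpo2 (0.69) led, each lower with Ang II in WT and higher in KO. The mean of the Dmd probes, however, gave 0.03 for Ang II in WT. That mean includes a dim probe that failed the background flag on the WT control array and read -2.65 there and -1.92 on WT Ang II. The Dmd probes that passed the flag on every array gave -0.39 and -0.24. Over all 36 members the median was 0.12, against -0.05 over 8600 genes, and 21 lay above 0, against 44.0%. At least 2-fold were 2 members upward (1.27% of all genes) and 0 downward (2.87%). Since the 4 arrays enter both the genotype and the treatment comparisons, these values are not independent of those above, and with 1 array per group the differences have no test.

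**Figure D4:**
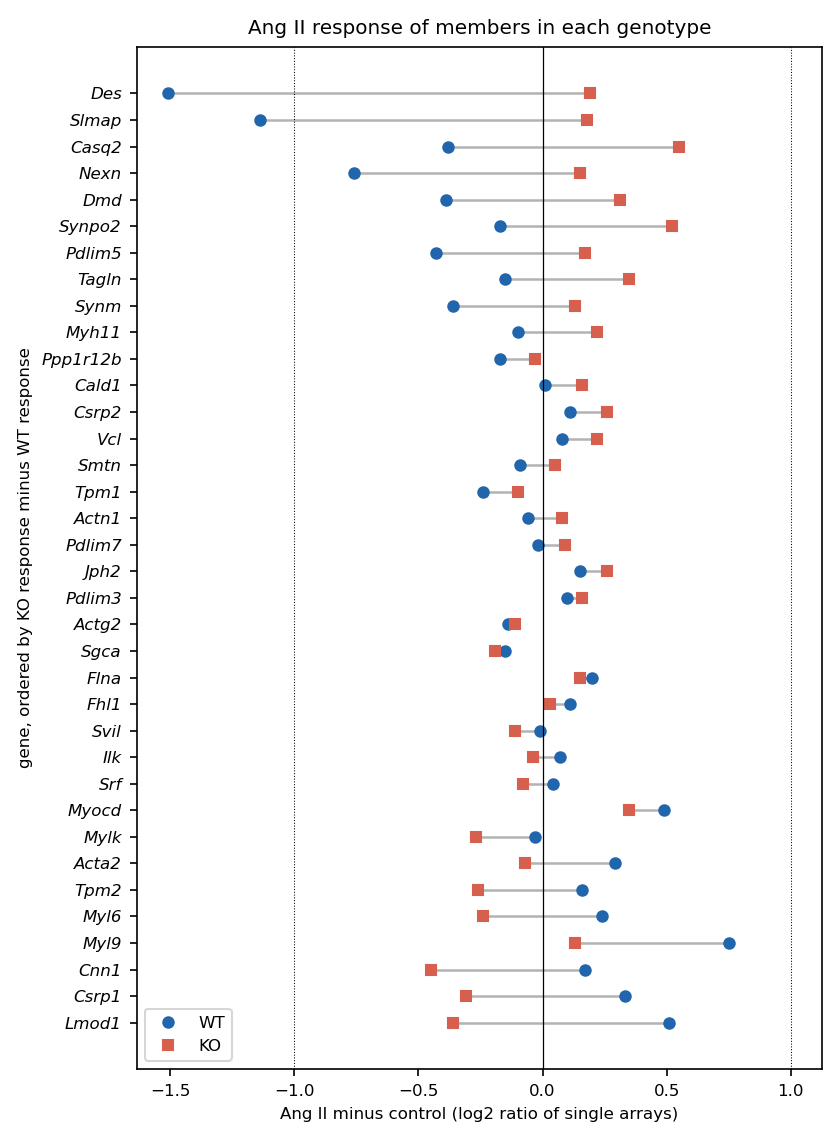
Log2 ratio of Ang II minus control for each member in WT (circles) and KO (squares), ordered by the KO minus WT difference of responses. The upper rows, from Des down to Synm, have WT below and KO above 0, while Lmod1, Csrp1 and Cnn1 show the reverse and Myl9, also among the lowest rows, is above 0 in both. Dotted lines mark 2-fold.

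Further smooth muscle and Srf-linked genes were divided. Of 55 listed, 47 had a matched probe and 45 could be compared, with medians of 0.11 without and 0.10 with Ang II for KO minus WT. In this list 17 of 45 had both KO values above both WT values (32.6% of all genes) and 11 below (31.2%). Nrap, an actin-anchoring protein of striated muscle, read -2.34, -1.88, -0.60 and -1.13, with ratios of 1.74 and 0.76, and Gata6, a transcription factor of smooth muscle, stood at 0.96 and 0.77. General cytoskeletal genes (actins, tubulins and the actin regulators Cfl1, cofilin, and Pfn1, profilin) had medians of 0.33 and 0.21 over 7 genes. Both KO values lay above both WT values for 5 of the 7 and below for 0. Cfl1 stood at 0.33 and 0.91, Pfn1 at 0.76 and 0.21, Actg1 at 0.40 and 0.21 and Actb at 0.34 and 0.27. The medians of the contractile members themselves were 0.37 and 0.43, and the difference between these lists was not tested.

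Genes of the synthetic state, in which smooth muscle cells divide and make matrix, had medians of -0.37 without and -0.47 with Ang II for KO minus WT over 13 genes. Of these 4 lay above 0 without Ang II and 3 with it. Among the 12 measured on all arrays, 7 had both KO values below both WT values (31.2% of all genes), 1 had both above (32.6%) and 4 overlapped. Those with the largest differences were Col8a1 and Eln. Eln, elastin, read 6.07, 5.94, 4.77 and 4.61, and Col8a1, a collagen of migrating smooth muscle, -0.87, -1.40, -2.50 and -2.46. Lum stands both in this list and in the fibroblast list below. In bulk tissue the cells that made this RNA cannot be told apart.

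Markers of other cells differed by genotype beside the members. In bulk tissue fewer cells of a type and less RNA per cell cannot be told apart. The fibroblast list had medians of -0.51 and -0.87 for KO minus WT over 8 genes, 6 of 8 with both KO values below both WT values (31.2% of all genes), and the log2 of its summed scaled signal was 9.52 and 9.57 in WT against 8.86 and 8.70 in KO. The lower fibroblast sum in KO rested mostly on collagens. Col1a1 read 7.09, 7.11, 5.56 and 5.33, Col3a1 7.96, 7.98, 6.51 and 6.51, and Col1a2 6.47, 6.38, 5.84 and 5.40. Macrophage markers had medians of -0.78 and -0.31 over 9 genes, 7 of 7 measured on all arrays were below without overlap, and the summed level was 5.62 and 5.73 in WT against 4.72 and 5.08 in KO. Endothelial markers had medians of -0.46 and -0.15 over 7 genes, with summed levels of 5.22 and 5.10 against 4.88 and 4.97. Tie1 and Emcn of the endothelial list and Mrc1 of the macrophage list were well above background on no array. The members' summed level was 9.01 and 8.97 in WT and 9.27 and 9.34 in KO. The part of these markers in the members' difference was not tested.

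Pericyte markers, of cells close to smooth muscle, had medians of -0.15 and 0.10 over 7 genes, with summed levels between 6.98 and 7.20. Of the cardiac muscle markers Myh6, Myh7, Tnni3, Myl2, Myl7, Nppa, Nppb and Ryr2 were well above background on no array, and of the skeletal muscle markers Tnnc2, Actn3, Myh2, Myh4 and Acta1 were on none. The cardiac Tnnt2 and Actc1 and the skeletal Tnnt3, Mb, Ckm and Tnni2 were well above background on all 4 arrays. KO minus WT of the skeletal list ran from -0.91 to 2.25 without Ang II and from -1.33 to 1.74 with it. The medians were 0.18 and 0.07 over 6 genes, 2 of them with 1 dim array. The summed level of the skeletal list was 1.57 to 1.78 and that of the cardiac list 1.65 to 1.89 over the arrays. White adipocyte markers had summed levels of 2.59 and 2.14 in WT and 1.73 and 1.93 in KO, with Cidec, Lep and Lpl above background on no array. For nerve and Schwann cell markers these levels were 0.18 and -0.36 against -0.62 and -0.57, and for lymphatic markers 7.67 and 8.06 against 7.32 and 7.17. The lymphatic sum rested mostly on Prox1, at 7.46, 7.89, 6.98 and 6.92. Of the 5 lymphatic markers, 2 were above 0 in KO minus WT without Ang II and 0 with it. Haemoglobin genes and Alas2 summed to 4.26 and 5.09 in WT and 4.35 and 4.85 in KO, higher with Ang II in both genotypes.

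**Figure D5:**
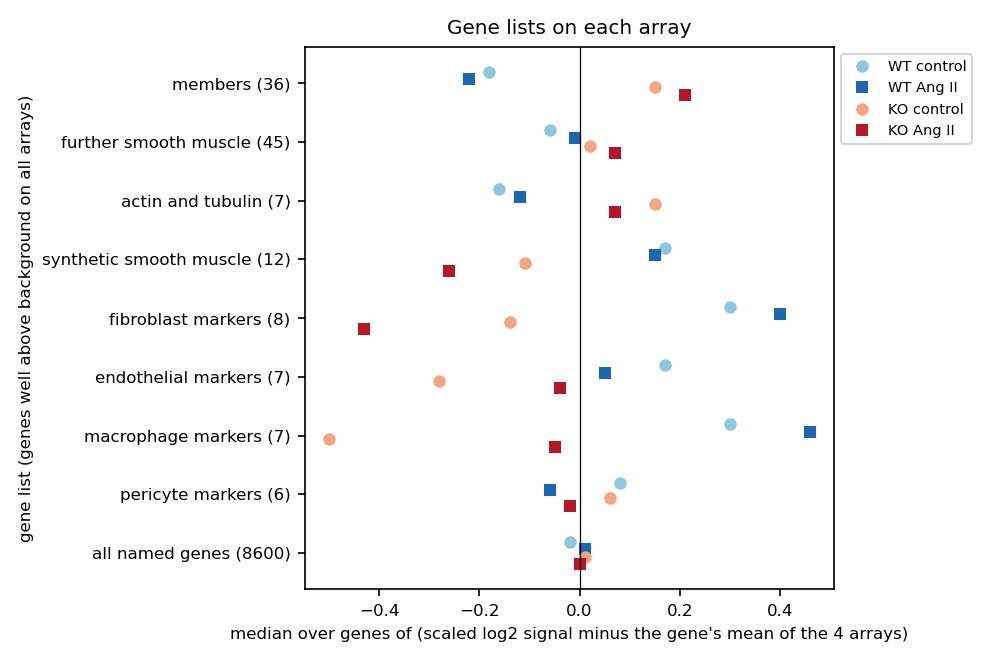
For each gene list, points give the median over genes of the scaled log2 signal minus the gene's mean of the 4 arrays, circles for control and squares for Ang II arrays, with the number of genes in brackets. The members lie at -0.18 and -0.22 in WT and at 0.15 and 0.21 in KO, opposite to the fibroblast and macrophage markers, while all named genes lie within 0.02 of 0.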

How the data were processed

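Cy3-labelled RNA of 4 vessel samples was read on 1-colour Agilent arrays, 1 per group. The authors deposited the scanner's processed intensity of every spot, beside other columns that hold flags of 0 or 1 for background and outliers. How the background was subtracted is not stated in the sources used here. Agilent Feature Extraction is version 12.1.1.1 per the submitters' processing notes and 10.7.1.1 per the file headers. A value table that the authors deposited gives log2 levels, which for 98.3% to 98.4% of probes lay within 0.01 of the log2 processed signal once a fixed offset was removed.

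Outlier spots (301 to 372 per array) were left out, spots of a probe were averaged, and the 75th percentile of each array was subtracted on the log2 scale. A probe was taken as well above background where at least 50% of its spots were so flagged. Accessions were matched without versions to RefSeq genes of GRCr8 for 21107 of the probes, while 24487 stayed unnamed. The array design names another build, so no gene coordinates are given beside the RefSeq promoters.

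Where 1 of 2 arrays was well above background, the dim array entered at its own level or at that of its dimmest probe passing the background flag, whichever was brighter. The result is a bound ("at least") where that dimmest probe was used. Where the array's own level was used, the result is an estimate that rests on a dim value. The additive fit used limma 3.58.1 in R 4.3.3 on genes that passed the background flag on 2 arrays or more. Python 3.11.15 was used otherwise. Every member may be named. Of each other list the named genes are those with the largest KO minus WT difference averaged over both treatments, up to 4. The members and lists were chosen with earlier results of these data known. Alternatives were other scalings, normexp (offset 50), the mean of a gene's probes, the deposited table and other filters and variance priors. The number of arrays limits the precision.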

Additional observations from a re-analysis of the deposited data

Results flagged for a closer look

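Des and Slmap had Ang II responses of opposite sign in the genotypes that differed by at least 2-fold. The KO response minus the WT response was 1.70 for Des on the log2 scale (-1.51 in WT and 0.19 in KO) and 1.32 for Slmap (-1.14 in WT and 0.18 in KO). The difference was not tested, since each group held 1 array, and both genes were read by a single spot per array. With normexp background correction the values were 1.35 for Des and 0.35 for Slmap.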

How the results depend on the processing

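The medians of the members kept their sign under 6 alternatives for all comparisons but Ang II in WT, whose median of -0.01 ranged from -0.06 to 0.03. With normexp the median of KO minus WT was 0.19 without and 0.27 with Ang II, and the members at least 2-fold higher numbered 0 in both, while those over all named genes numbered 25 and 18. Also with normexp, 1 member was at least 2-fold lower with Ang II in WT and 1 was at least 2-fold higher in the difference of responses. The number of members with both KO values above both WT values ranged from 19 (normexp) to 29. In the additive fit, 11 members were higher in KO with an intensity trend in the prior variance, against 0 with a constant prior variance and with the other alternatives. For single members, 1505 values were compared under the alternatives, counting log2 ratios together with adjusted p values of the additive fit. Of these, 146 ratios moved by more than the spot spread of 0.106, and 11 adjusted p values passed the threshold with the intensity trend. Only ratios could count as moved, and keeping only genes well above background on every array left their ratios unchanged. The share of ratios that moved was therefore larger than 146 of 1505. Of the ratios that were at least 2-fold, none changed sign. Smaller ratios changed sign under some alternative for 7 and 6 members in KO minus WT without and with Ang II, for 10 and 5 in Ang II minus control in WT and KO, and for 7 in the difference of responses. The scanner files give a median and no mean raw signal, so normexp used the median. No paired analysis was possible because each group holds 1 array with the same replicate number. Leaving out an array would leave a group empty, so it was not run.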
